A study of Bos indicus with 6 samples.

Results

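The proteasome genes of the oviduct isthmus were taken from the expression table by their symbol. A gene was a member when its symbol started with PSM, a letter from A to G and a digit, and PSMB8 and PSMB9 were left out. This gave 47 of the 24616 genes of the table. The members were the alpha subunits PSMA1 to PSMA8, the beta subunits PSMB1 to PSMB7, PSMB10 and PSMB11, the ATPases PSMC1 to PSMC6, the other regulatory particle genes PSMD1 to PSMD14, the activators PSME1 to PSME4, the inhibitor PSMF1 and the assembly chaperones PSMG1 to PSMG4. PSMC3IP also matched by its letters, but it encodes a partner protein of meiotic recombination and is not part of the proteasome.

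The proteasome is the barrel-shaped protease that degrades proteins tagged with ubiquitin in the cytosol and nucleus. Its core, called 20S, is built from outer rings of alpha subunits and inner rings of beta subunits, and some of the beta subunits carry the cutting sites. The regulatory particle, called 19S, caps the core: ubiquitin receptors and ATPases in its base and a deubiquitinase in its lid recognise, unfold and feed in the substrates. Other caps replace it in part of the complexes, and dedicated chaperones assist the assembly and then leave or are degraded. Most cells keep the subunits at matched levels, and the synthesis of all subunits can be raised together by the transcription factor NFE2L1.

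The 6 libraries came from the isthmus, the muscular part of the oviduct next to the uterus, of 6 healthy multiparous Nelore cows (Bos indicus), with 1 library per cow. In the LF/LCL group (large follicle, large corpus luteum; cows 617, 79 and 527) the progesterone device was taken out 42 h before GnRH, and in the SF/SCL group (small follicle, small corpus luteum; cows 856, 97 and 489215) 30 h before GnRH. All cows were presynchronised with a prostaglandin F2α analog and buserelin, received the device with estradiol benzoate, were given prostaglandin at device removal and again some hours later, and ovulated after buserelin. The LF/LCL cows had 1 further prostaglandin injection when the device was inserted, so the length of progesterone exposure and this injection cannot be told apart. Tissue was collected on day 4 after GnRH from the oviduct on the side of the corpus luteum. The authors had ranked the cows within each group by follicle diameter, estradiol, corpus luteum area and progesterone. They sequenced the 3 highest of LF/LCL and the 3 lowest of SF/SCL, so these cows are opposite extremes of the groups. Whole tissue was used, so fewer cells of a type and less RNA per cell cannot be told apart.

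The libraries held 23899117 to 34193164 uniquely mapped reads. The values are normalized counts, that is reads divided by the size factor of the library. These summed to 25901138 to 26900121 in 5 cows and to 33913666 in SF/SCL cow 489215, which stood apart from the other cows of its group. Summed counts of 6 smooth muscle genes were 664451 to 744257 in LF/LCL, 293688 and 364383 in cows 856 and 97 and 984944 in cow 489215. ACTA2 (533926 in cow 489215), DES, CNN1 and SMTN were highest in this cow. MYLK and MYH11 were below LF/LCL in it, with 47882 against 74149 to 79842 and 116653 against 137623 to 191119. For 7 genes of ciliated epithelium the sums were 11261 to 13927 in LF/LCL, 29723 and 31319 in cows 856 and 97 and 8409 in cow 489215, and for 6 genes of secretory epithelium they were 23454 to 30139, 306982 and 366420, and 44398. Of the ciliated genes, FOXJ1, DNAH5 and TEKT1 were below LF/LCL in cow 489215. DNAI1 and CCDC39 were above LF/LCL in this cow, and RSPH1 was within the LF/LCL range. The secretory sum followed OVGP1, with 271794 and 325158 in cows 856 and 97 and 729.6 in cow 489215. PAX8 was also higher in cows 856 and 97 (1441 and 1437) than in LF/LCL (503 to 663) and cow 489215 (469). This pattern did not hold for the whole list. KRT8, KRT18 and EPCAM were higher in all 3 SF/SCL cows than in LF/LCL, and MSX1 was lower in cows 856 and 97 only. These markers of oviduct muscle and epithelium were all detected except PIFO, which was listed at 0 in every cow. The sums for 5 fibroblast genes were 156971 to 192032 in LF/LCL, 80929 and 83129.5 in cows 856 and 97 and 125939 in cow 489215, and for 4 mesothelial genes they were 2451 to 3313, 26242 and 26725, and 3483. The mesothelial sum followed MSLN and WT1. In contrast, LRRN4 was lower in SF/SCL, with 175 to 412 in LF/LCL and 3.8, 16.3 and 5.3 in cows 856, 97 and 489215. The groups overlapped for UPK3B, with 87 to 326 in LF/LCL and 37, 626 and 141 in cows 856, 97 and 489215. For 3 endothelial and 8 leukocyte genes the sums were 7309 to 11252 and 2045 to 3405 over all cows. Cow 489215 was outside the range of cows 856 and 97 for the muscle, epithelial, fibroblast and mesothelial sums, though not for every gene of these lists, and the part of these cell types in the results that follow was not tested. Group comparisons are given with and without cow 489215.

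Of the 47 members, 45 passed the filters (mean over the cows higher than 5 and higher than the SD) and were tested among 15387 genes. PSMB11, the cutting subunit of the thymus proteasome, had 1 read in cow 856 and 0 reads in the other cows, where a count of 0 leaves room for up to 3 reads. PSMA8, the alpha subunit of germ cells, had 1, 2 and 0 reads in LF/LCL cows 617, 79 and 527 and 1, 1 and 0 reads in SF/SCL cows 856, 97 and 489215. Both were at or near 0 in all cows, and no fold change is given for them. The other subunits were detected in every cow.

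The first question was whether the proteasome genes differed between the groups. With all 6 cows, 0 of the 45 members passed an adjusted p of 0.05 in limma, a linear model whose variance estimates are shared across genes, and 0% of all genes tested passed. At an unadjusted p under 0.05 there were 2 members, PSMF1 and PSMD4, both higher in SF/SCL, against a background of 8.66% of all genes. The edgeR quasi-likelihood test on the recovered reads gave 0 members after adjustment and 2 before. DESeq2 gave 1 member, PSMF1, where it called 2.66% of all genes. The fitted log2 fold change of SF/SCL over LF/LCL was above 0 in 37 members and below 0 in 8, with a median of 0.17, and the median of all genes was -0.02. When values were scaled by library size alone, 30 members were above 0 and 15 below.

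The values of the groups did not overlap for 5 members. In all 3 SF/SCL cows 4 members were above all LF/LCL cows (PSMF1, PSMD4, PSMD9 and PSME4), where 9.51% of all genes showed this pattern. Only PSMD10 was below in all of them, where 8.6% of all genes were. These counts of 4 and 1 out of 45 are not above the backgrounds.

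PSMF1 encodes PI31, a protein that inhibits the core in the test tube and carries proteasomes in some cells. Its normalized counts were 1490.4, 1492 and 1466 in LF/LCL cows 617, 79 and 527, and 3727, 3321 and 2231 in SF/SCL cows 856, 97 and 489215. The LF/LCL cows lay within a narrow range, every SF/SCL cow was above it, and cow 489215 was the lowest of its group. The log2 fold change was 1.03 (SE 0.23, 2.04-fold) and the limma adjusted p was 0.367. DESeq2 gave a log2 fold change of 1.06 with an adjusted p of 0.00856, and the edgeR adjusted p values were 0.339 and 0.346 with its own and the DESeq2 size factors.

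PSMD4, the ubiquitin receptor also known as RPN10, is a subunit of the 19S base. It had 3757, 3316 and 3296 normalized counts in LF/LCL cows 617, 79 and 527, and 4776, 4929 and 4721 in SF/SCL cows 856, 97 and 489215. The 3 SF/SCL cows were close together and all above the LF/LCL cows, and cow 489215 did not stand apart for this gene. Its log2 fold change was 0.48 (SE 0.15) with a limma adjusted p of 0.452.

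PSMD9, an assembly chaperone of the 19S base, had 882, 816 and 843 normalized counts in the LF/LCL cows and 956, 1025 and 1074 in SF/SCL cows 856, 97 and 489215. The ranges were apart, but the log2 fold change of 0.26 (SE 0.17) had a limma adjusted p of 0.762. PSME4, the activator PA200 of the nucleus, had 2683, 2750.2 and 2516 in the LF/LCL cows and 3329, 3387 and 2789 in the SF/SCL cows. Here cows 856 and 97 were clearly above LF/LCL, and cow 489215 was just above the highest of them. PSME4 had a log2 fold change of 0.25 (SE 0.16) and a limma adjusted p of 0.758. PSMD10, also called gankyrin, holds ATPases of the base during assembly. It had 696, 619 and 718 normalized counts in the LF/LCL cows and 593, 568 and 443 in the SF/SCL cows, with cow 489215 the lowest of all. Its log2 fold change was -0.35 (SE 0.21) and its limma adjusted p 0.742.

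**Figure D1:**
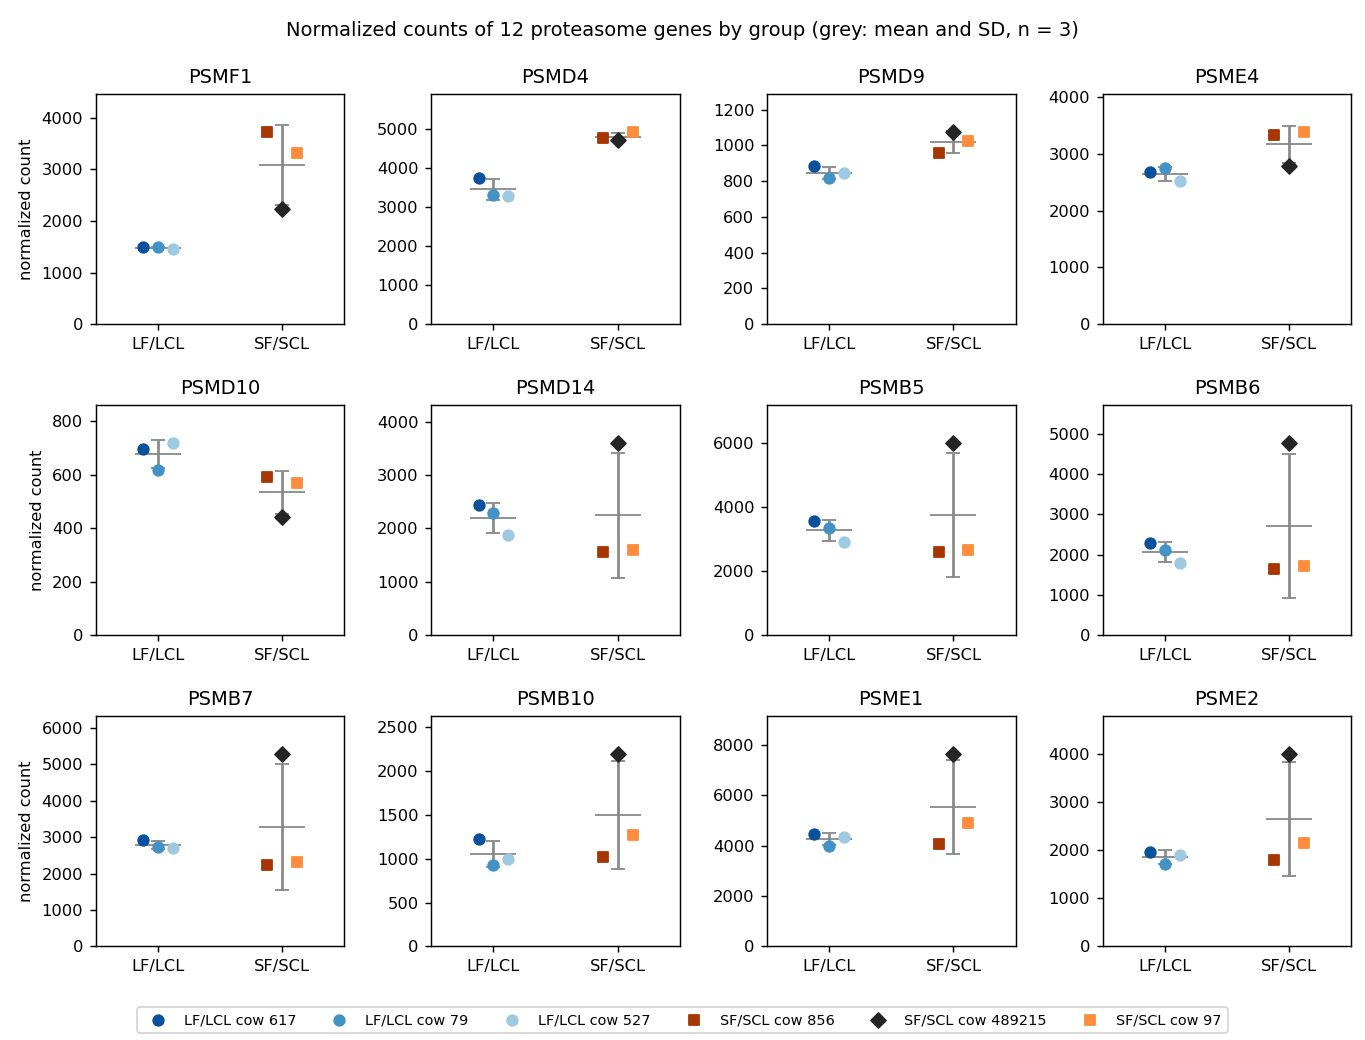
Normalized counts (y axis, from 0) of 12 proteasome genes in LF/LCL and SF/SCL, with 1 point per cow and the mean ± SD of each group in grey (n = 3). For PSMF1 and PSMD4 all SF/SCL cows lay above LF/LCL, whereas for PSMB5, PSMB6 and PSMB7 cow 489215 was the highest of the 6 cows and cows 856 and 97 were the lowest.

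The direction of most members depended on cow 489215. When it was left out, a choice made with its values known, 27 members changed the sign of their fold change, and 12 members were then higher and 33 lower in SF/SCL. The median log2 fold change of the members went from 0.17 to -0.16, while the median of all genes was -0.0009. In this fit of 5 cows, limma called 3 members higher in SF/SCL (PSMF1, PSMD4 and PSME4), where 10.3% of all genes were called higher, and 1 lower (PSMD14), where 7.92% of all genes were called lower. Unadjusted p values were under 0.05 for 15 members, where they were for 33.9% of all genes, so this count is at the background.

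Cows 856 and 97 were both below all LF/LCL cows for 24 members, where 24.9% of all genes were. They were both above for 4 members, where 27.1% of all genes were. The members below were subunits of the core, the ATPases and the lid, core chaperones, PSMD2 and PSMD10, and the 4 above were PSMF1, PSMD4, PSMD9 and PSME4. These differences were mostly small, since the fitted values of the members below 0 ranged down to -0.47.

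**Figure D2:**
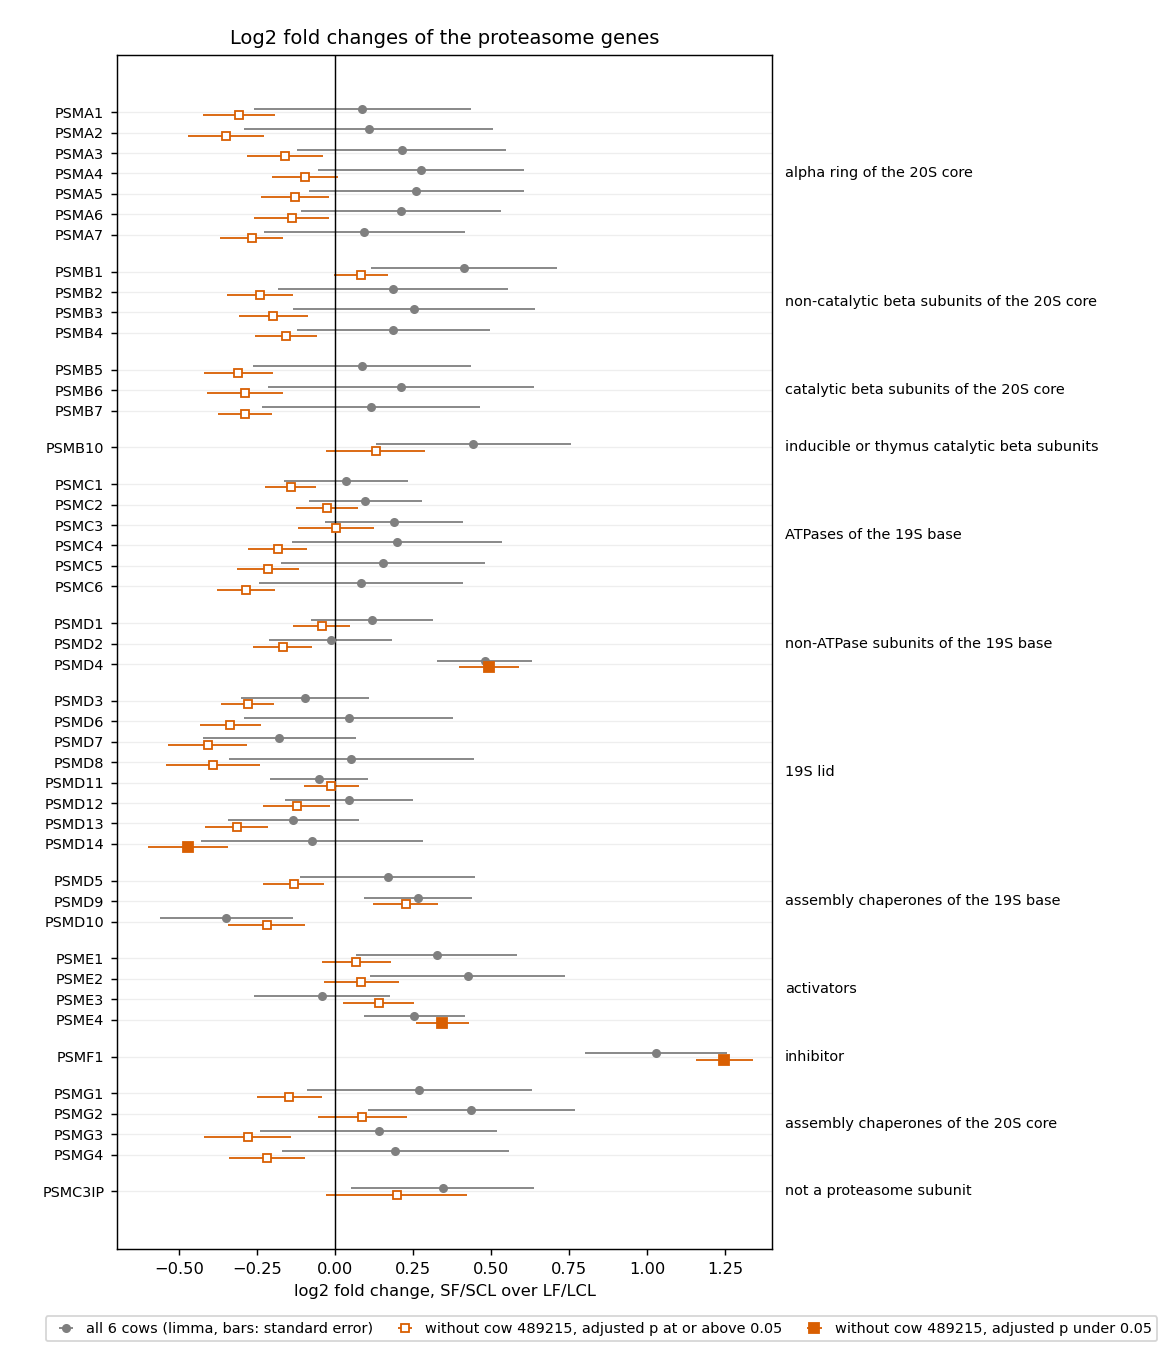
Log2 fold change of SF/SCL over LF/LCL (x axis) with its standard error for the 45 tested members by role, with all 6 cows (grey) and without cow 489215 (orange, filled where the limma adjusted p was under 0.05). Without this cow 33 members lay below 0, and the filled symbols are PSMF1, PSMD4, PSME4 and PSMD14.

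The alpha ring forms the gated entrance of the core. Its 7 tested subunits, PSMA1 to PSMA7, had log2 fold changes of 0.09 to 0.27 with SEs of 0.32 to 0.40 with all cows, and of -0.35 to -0.10 without cow 489215. PSMA1, PSMA2 and PSMA7 were the subunits for which cows 856 and 97 both lay below the LF/LCL cows. PSMA2 may serve as an example, with 1207, 1109 and 979 normalized counts in LF/LCL cows 617, 79 and 527, 866 and 849 in cows 856 and 97, and 2225 in cow 489215. The pattern of this gene, with the SF/SCL cows on both sides of the LF/LCL cows, was also that of the catalytic subunits, and no alpha subunit passed the limma threshold in either fit.

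The beta subunits that line the inner rings without a cutting site are PSMB1 to PSMB4. Their log2 fold changes were 0.18 to 0.41 with all cows and -0.24 to 0.08 without cow 489215. PSMB1 was the exception within this set. It had 4344, 4118 and 3921 normalized counts in LF/LCL, 4311 and 4413 in cows 856 and 97, and 8674 in cow 489215, so cows 856 and 97 were not below LF/LCL. PSMB2, PSMB3 and PSMB4 were below LF/LCL in cows 856 and 97, and 0 of the 4 genes passed the limma threshold in either fit.

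The 3 constitutive cutting subunits ranked the 6 cows in the same order. PSMB5, which cuts after hydrophobic residues, had 3568, 3328 and 2898 normalized counts in LF/LCL cows 617, 79 and 527, 2581 and 2662 in SF/SCL cows 856 and 97, and 5983 in cow 489215. PSMB6, which cuts after acidic residues, had 2279.6, 2114 and 1798.0 in LF/LCL, 1644 and 1715 in cows 856 and 97, and 4761 in cow 489215. PSMB7, which cuts after basic residues, had 2908, 2739.8 and 2688 in LF/LCL, 2225 and 2319 in cows 856 and 97, and 5269.5 in cow 489215. In all 3 genes the order from high to low was cow 489215, cows 617, 79 and 527 of LF/LCL, then cow 97 and cow 856. The log2 fold changes were 0.09 (SE 0.35), 0.21 (SE 0.43) and 0.11 (SE 0.35) with all cows. Without cow 489215 they were -0.31 (SE 0.11), -0.29 (SE 0.12) and -0.29 (SE 0.09), with limma adjusted p values of 0.102, 0.149 and 0.0633.

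PSMB10 is the interferon-inducible subunit that replaces PSMB7 in the immunoproteasome, the form that favours peptides for presentation on MHC class I. It had 1224, 934 and 999.6 normalized counts in LF/LCL cows 617, 79 and 527, and 1024, 1276 and 2191 in SF/SCL cows 856, 97 and 489215. The groups overlapped, because cow 856 was below cow 617. The log2 fold change was 0.44 (SE 0.31), the third largest of the members, with a limma adjusted p of 0.789, and it was 0.13 without cow 489215. The log2 ratio of PSMB10 to PSMB7, in which the scaling of the library cancels, was -1.25, -1.55 and -1.43 in the LF/LCL cows and -1.12, -0.86 and -1.27 in SF/SCL cows 856, 97 and 489215. The group means were -1.41 ± 0.15 and -1.08 ± 0.20 (SD, n = 3), and the difference of 0.33 had p = 0.2 in an exact two-sided permutation test (adjusted p = 0.6 over 3 ratios), where 0.1 is the smallest p that 3 against 3 allows. Without cow 489215 the difference was 0.42, with p = 0.1 in the exact permutation test, again the smallest p that the remaining cows allow.

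The ATPases PSMC1 to PSMC6 form the ring of the base that unfolds the substrate. With all cows their log2 fold changes were 0.03 to 0.20, and without cow 489215 they were -0.29 to 0.0014. PSMC1, PSMC4, PSMC5 and PSMC6 were below LF/LCL in both cows 856 and 97, while PSMC2 and PSMC3 overlapped with LF/LCL. For example, PSMC6 had 1982, 1802 and 1794 normalized counts in LF/LCL, 1508 and 1537 in cows 856 and 97, and 3279 in cow 489215. PSMD1 and PSMD2, the large scaffold subunits of the base, had log2 fold changes of 0.12 and -0.02 with all cows and of -0.04 and -0.17 without cow 489215. PSMD4, described above, was the subunit of the base that was higher in all 3 SF/SCL cows, with 0.49 (SE 0.10) and a limma adjusted p of 0.0189 without cow 489215.

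The lid of the 19S particle had the lowest median log2 fold change of the roles, -0.06 with all cows and -0.33 without cow 489215. Its 8 tested members, PSMD3, PSMD6, PSMD7, PSMD8 and PSMD11 to PSMD14, had log2 fold changes of -0.18 to 0.05 with all cows and of -0.47 to -0.01 without cow 489215. In cows 856 and 97 6 of the 8 lay below LF/LCL, where 24.9% of all genes did. Without cow 489215, 6 had an unadjusted limma p under 0.05, where 33.9% of all genes did. PSMD14, the deubiquitinase that removes the ubiquitin chain, had 2431, 2282 and 1879 normalized counts in LF/LCL cows 617, 79 and 527, 1551 and 1598 in cows 856 and 97, and 3599 in cow 489215. Cows 856 and 97 were below every LF/LCL cow and cow 489215 was above every one. Its log2 fold change was -0.07 (SE 0.35) with all cows and -0.47 (SE 0.13) without cow 489215, with limma adjusted p values of 0.967 and 0.0493.

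PSMD7 and PSMD13, structural subunits of the lid, had the lowest fold changes after PSMD10. PSMD7 had 2906, 2508 and 2221 normalized counts in LF/LCL, 1914 and 1896 in cows 856 and 97, and 3072 in cow 489215, with a log2 fold change of -0.18 (SE 0.25) and of -0.41 (SE 0.13) without cow 489215. PSMD13 had 2193, 2142 and 2211 in LF/LCL, 1616 and 1898 in cows 856 and 97, and 2554 in cow 489215, with -0.14 (SE 0.21) and -0.32 (SE 0.10). In both genes cow 489215 was the highest cow by a smaller margin than in the core. PSMD11 was the flattest member of the lid, with 1510, 1497 and 1474 in LF/LCL and 1446, 1515 and 1365 in SF/SCL cows 856, 97 and 489215. The chaperone PSMD5 of the base had a log2 fold change of 0.17 with all cows and of -0.13 without cow 489215.

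The activators open the core without ATP. PSME1 and PSME2 encode PA28 alpha and PA28 beta, which are induced by interferon gamma and form 1 ring together. PSME1 had 4458, 4001 and 4329 normalized counts in LF/LCL cows 617, 79 and 527, and 4064, 4892 and 7623 in SF/SCL cows 856, 97 and 489215. PSME2 had 1964, 1703 and 1903 in LF/LCL and 1788, 2156 and 3987 in SF/SCL. In both genes cow 856 was within the LF/LCL range, cow 97 was above it and cow 489215 far above it. Their log2 fold changes were 0.32 (SE 0.26) and 0.42 (SE 0.31), and 0.07 and 0.08 without cow 489215. PSME3, the nuclear PA28 gamma, had 1469, 1425 and 1259 in LF/LCL and 1612, 1434 and 1043 in SF/SCL cows 856, 97 and 489215. Here cow 489215 was the lowest of all cows, and the log2 fold change was -0.04 (SE 0.22), or 0.14 (SE 0.11) without it.

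PSME4 and PSMF1 differed from these activators in that cow 489215 was the lowest of the SF/SCL cows and still above LF/LCL. Without cow 489215 the log2 fold change of PSME4 was 0.34 (SE 0.09) with a limma adjusted p of 0.0387, and that of PSMF1 was 1.25 (SE 0.09, 2.37-fold) with a limma adjusted p of 0.00205. The log2 ratio of PSME1 to PSME4 was 0.73, 0.54 and 0.78 in the LF/LCL cows and 0.29, 0.53 and 1.45 in SF/SCL cows 856, 97 and 489215, with a difference of the means of 0.07 (p = 1 in the exact permutation test). Without cow 489215 this difference was -0.28, with p = 0.2 in the exact permutation test. The log2 ratio of PSME2 to PSME3 had a difference of 0.47 (p = 0.7 in the exact permutation test) and of -0.06 without cow 489215. The direction of both ratios changed without cow 489215, and that of PSME1 to PSME4 also changed without LF/LCL cow 79 (-0.0016).

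The chaperones PSMG1 to PSMG4 pair the alpha subunits of a new core. Their log2 fold changes were 0.14 to 0.44 with all cows and -0.28 to 0.09 without cow 489215. PSMG1, PSMG3 and PSMG4 were below LF/LCL in cows 856 and 97, and PSMG2 was not. PSMG2 had 901, 924 and 718 normalized counts in LF/LCL, 871 and 918 in cows 856 and 97, and 1849 in cow 489215. No chaperone of the core passed the limma threshold in either fit. PSMC3IP, which is no proteasome gene, had 120.4, 108 and 125 in LF/LCL and 148, 123 and 184 in SF/SCL, and leaving it out gave 36 members above 0 and 8 below among 44.

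**Figure D3:**
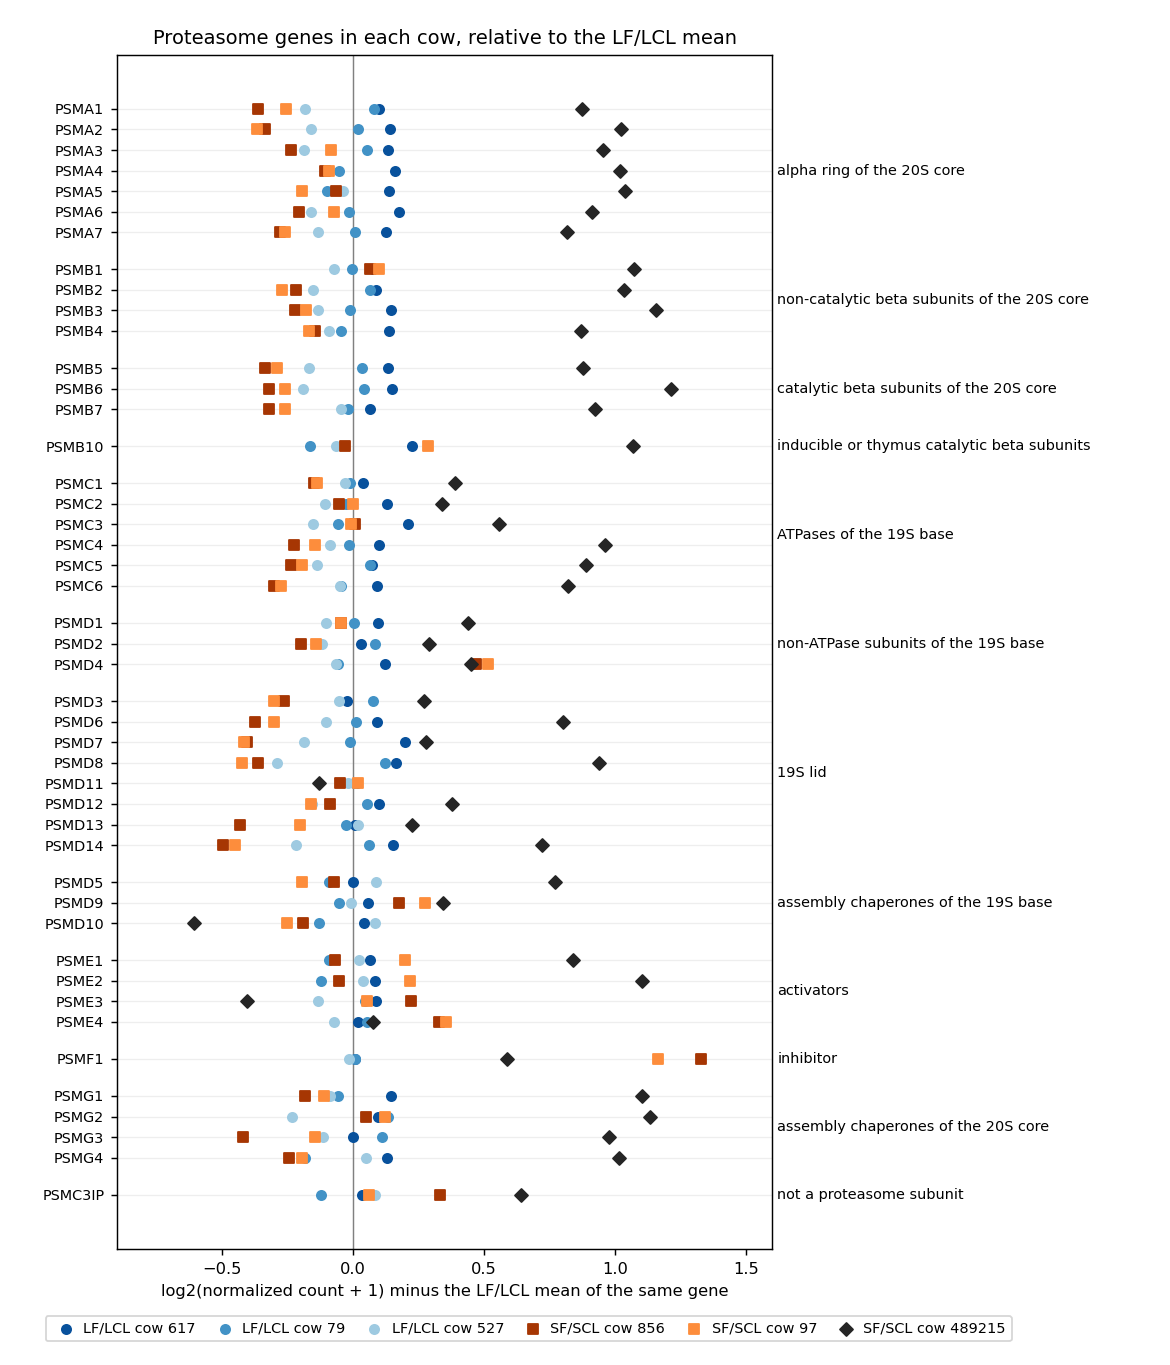
Level of each of the 45 tested members in each cow, as log2(normalized count + 1) minus the LF/LCL mean of the gene (x axis), with LF/LCL cows in blue, SF/SCL cows 856 and 97 in orange and cow 489215 in black. Cow 489215 was the highest cow for 39 members, and the lowest for PSMD10, PSMD11 and PSME3.

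The subunits were therefore compared in cow 489215 with the median of the other 5 cows, as a description of 1 library with no test. The median over the members was 1.93-fold, with a range from 0.717-fold in PSMD10 to 2.65-fold in PSMB6. At least 2-fold higher were 19 of the 45 members, or 42.2%, against 11.0% of all genes tested and 10.8% of the 5542 other genes with a mean of 1000 to 10000 normalized counts. This cow was the highest of all 6 for 39 members, or 86.7%. It was the highest for 36.7% of all genes and for 47.6% of the other genes of like level.

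The parts of the complex differed within this cow. All 15 tested core subunits were highest in it, at 1.93-fold to 2.65-fold with a median of 2.08-fold. The 4 core chaperones were at 2.05-fold to 2.29-fold. The 17 subunits of the 19S particle were at 0.912-fold to 2.34-fold with a median of 1.38-fold, and the ATPases among them at 1.29-fold to 2.07-fold. The summed counts of the core divided by those of the 19S particle were 0.815, 0.787 and 0.791 in the LF/LCL cows, 0.770 and 0.780 in cows 856 and 97 and 1.09 in cow 489215. The ratio is not per length of transcript and can be read between cows only, and it was close in 5 cows and higher in cow 489215.

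Genes of other housekeeping complexes were higher in the same cow too. The 91 cytosolic ribosomal protein genes had a median of 2.54-fold, and 86 of them were at least 2-fold higher. The 37 NDUF genes of respiratory complex I had a median of 2.47-fold, with 28 at least 2-fold higher. Without cow 489215 the median log2 fold change was -0.16 in the proteasome members, 0.01 in the ribosomal protein genes and -0.34 in the NDUF genes. Counted as a share of the reads, without size factors, the 47 members took 0.450%, 0.419% and 0.401% in LF/LCL cows 617, 79 and 527, 0.403% and 0.415% in cows 856 and 97, and 0.554% in cow 489215. In this cow 4 of the 6 smooth muscle markers and their summed count were also the highest of the 6 cows. So was the sum of all normalized counts. Its library had the fewest genes above 0, 16944 against 17348 to 17718 in the other cows. The size factor was also the lowest, 0.751 against 0.923 to 1.32. The part of tissue and of library in these values was not tested.

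**Figure D4:**
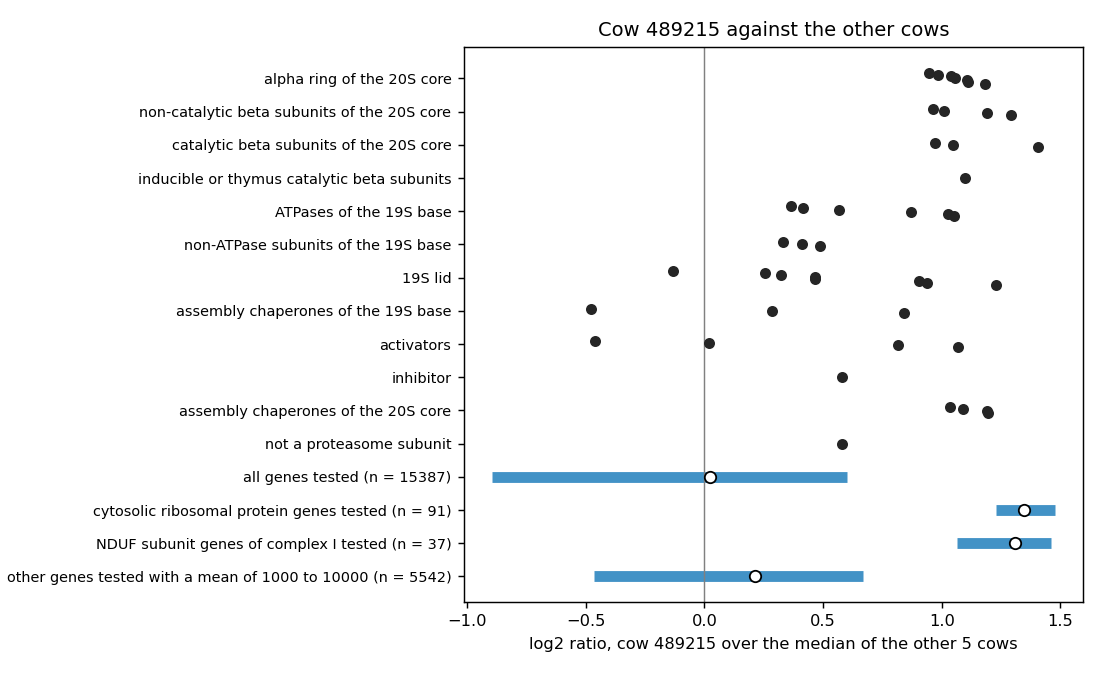
Log2 ratio of cow 489215 over the median of the other 5 cows (x axis), with 1 point per tested proteasome gene by role and, for comparison groups, the median (circle) and the middle 50% of genes (bar). The core subunits and their chaperones were at or above a ratio of 0.95, while the 19S lid, the activators and the base chaperones were spread from -0.48 to 1.23.

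The spread of the members between cows was near that of genes of like level in LF/LCL. Within LF/LCL the median SD of log2 values was 0.12 over the members, 0.17 over all genes and 0.12 over the other genes with a mean of 1000 to 10000. The median distance between cows 856 and 97 on the log2 scale was 0.06 over the members, 0.18 over all genes and 0.12 over those of like level. Within SF/SCL the median SD was 0.61 over the members, 0.53 over all genes and 0.42 over those of like level. Among the LF/LCL cows, cow 617 was the highest for 35 of the 45 members and cow 527 the lowest for 35. These counts were not set against all genes, so they do not show a trait of the members.

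Further genes of the pathway were counted from set lists. Of 11 other parts and partners of the proteasome, 9 were higher in SF/SCL and 2 had an unadjusted p under 0.05, where 8.66% of all genes did. AKIRIN2, which brings proteasomes into the nucleus, had 1433, 1387 and 1345 normalized counts in LF/LCL cows 617, 79 and 527 and 1934, 2109 and 3177 in SF/SCL cows 856, 97 and 489215. ZFAND5, a proteasome-binding activator, had 5094, 5228 and 5090.0 in LF/LCL and 6719, 6757 and 8638 in SF/SCL. In both genes all SF/SCL cows were above LF/LCL, where 9.51% of all genes showed this pattern. The log2 fold changes were 0.76 (SE 0.23) and 0.51 (SE 0.18), with limma adjusted p values of 0.433 and 0.480. Without cow 489215 the limma adjusted p values were 0.0131 and 0.0202, in a fit that called 10.3% of all genes higher.

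Of 13 genes of ubiquitin, its activation and its delivery, 9 were higher in SF/SCL and 0 had an unadjusted p under 0.05. Without cow 489215 limma called 2 of them higher, where it called 10.3% of all genes higher. These were NUB1 and UBQLN1, named after their values had been seen, with log2 fold changes of 0.45 and 0.37. With all cows the log2 fold changes were 0.03 and 0.21. Cow 489215 was the lowest of the 6 cows for both genes, with 1118 and 2449.7 normalized counts. Of 8 tested genes for extraction of substrates and for control of proteasome genes, 6 were higher and 0 had an unadjusted p under 0.05, and DDI1 was listed at 0 in every cow. NFE2L1, the transcription factor of the proteasome genes, was chosen after its values had been seen. It had 16294, 16656 and 15483 normalized counts in LF/LCL cows 617, 79 and 527, 26539 and 27254 in SF/SCL cows 856 and 97 and 14011 in cow 489215. Cows 856 and 97 were above LF/LCL, where 27.1% of all genes were, and cow 489215 was below it. A link between NFE2L1 and the levels of the subunits was not tested. The log2 fold change of NFE2L1 was 0.42 (SE 0.30) with a limma adjusted p of 0.787. Without cow 489215 it was 0.74 (SE 0.08) with 0.00396, in the fit that called 10.3% of all genes higher.

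Of the immunoproteasome subunits, PSMB8 and PSMB9 were left out by the choice of members. They had log2 fold changes of 0.33 (SE 0.25) and 0.46 (SE 0.27), and of 0.11 and 0.31 without cow 489215. None of PSMB8, PSMB9 and PSMB10 passed the limma threshold in either fit. Further genes from the list for the immunoproteasome and peptide loading were named after their values had been seen. Of these, B2M, ERAP1 and NLRC5 did not pass with all cows. Without cow 489215 limma called them higher in SF/SCL, with log2 fold changes of 0.39, 0.83 and 1.10. It called 10.3% of all genes higher in that fit, and TAP1, TAP2, TAPBP and IRF1 were called in neither fit. Cow 489215 itself was above LF/LCL for B2M (65740 normalized counts) and within the LF/LCL range for ERAP1 (904.0). For NLRC5 it was below LF/LCL (258, against 375 to 465).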

How the data were processed

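Isthmus RNA of 6 cows was sequenced as paired ends from polyadenylated TruSeq libraries. The authors trimmed reads with seqyClean, aligned them to masked bovine UMD3.1 with TopHat2 2.0.8 and Bowtie2 2.1.0, counted reads per Ensembl gene with HTSeq 0.5.4p2 and divided the counts by DESeq 1.12.1 size factors; the strand setting is not given in the sources used here. The deposited signal values are these normalized counts. All 147696 values (100%) were whole reads within 0.1 once multiplied by the size factor, so reads were recovered.

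The 15387 genes whose mean exceeded both 5 and their SD were tested as SF/SCL against LF/LCL without covariates by limma 3.58.1 (trend, robust; R 4.3.3) on log2(value + 1), which understates changes of low genes, with Benjamini-Hochberg adjustment over all genes. The edgeR 4.0.16 quasi-likelihood test (0 genes called) and DESeq2 1.42.0 (409 genes called) were run on recovered reads. Ratios were compared by exact permutation tests. Scripts were tested on simulated data. Other calculations used Python 3.11.15, pandas 2.3.3 and matplotlib 3.10.9. The alternatives were other pseudocounts, filters, scalings and tools, and leaving out each cow.

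Members and gene lists were chosen with earlier results of these data known. Every member is named, and values per cow are given for members with groups that did not overlap, the 3 largest changes in each direction, catalytic subunits, activators, the inhibitor and members near 0, with further members added as examples after their values had been seen. Genes of the related lists are named at an unadjusted p under 0.05. A result of 1 of these lists is not reported here. No genome or annotation of the files' build was used, so no positions or sequences are given, and levels are not compared between genes. Reads without molecular identifiers are not independent molecules, so the floor of 3 reads covers counting error only.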

Additional observations from a re-analysis of the deposited data

How the results depend on the processing

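The 0 members past the limma adjusted threshold with all 6 cows stayed 0 under the other pseudocounts, filters and scalings, limma without trend, limma-voom and both edgeR fits, and became 1 (PSMF1) with DESeq2. The count was 0 to 4 with each cow left out, and the 4 came from leaving out cow 489215. The lowest adjusted p of PSMF1 with all cows was that of DESeq2, and the others ranged from 0.328 to 0.538. The 2 members at an unadjusted p under 0.05 became 1 under library size scaling, and 1 to 15 with each cow left out. The 5 members whose groups did not overlap were 4 or 5 under the other settings and 5 to 28 with a cow left out. The median log2 fold change of 0.17 stayed above 0 except without cow 489215, with a range of -0.16 to 0.33 over the cows left out. The log2 ratio of PSMB10 to PSMB7 kept its direction, at 0.22 to 0.42, whereas PSME1 to PSME4 ranged from -0.28 to 0.30 and PSME2 to PSME3 from -0.055 to 0.84. Library size scaling shifted the median of all genes from -0.02 to -0.11 and that of the members to 0.08, which stayed above the median of all genes. Under it the log2 fold change turned negative for PSMA1 (-0.0040), PSMB5 (-0.0043), PSMC1 (-0.056), PSMC6 (-0.0078), PSMD6 (-0.048), PSMD8 (-0.039) and PSMD12 (-0.046), and under upper quartile scaling for PSMC1 (-0.036), PSMD6 (-0.027), PSMD8 (-0.018) and PSMD12 (-0.026). It also turned for PSMD6 with limma-voom (-0.0038), and for PSMD14 with edgeR on DESeq2 size factors (0.033) and with DESeq2 (0.031). With each cow left out in turn, the log2 fold change ranged in PSMA1 from -0.31 to 0.31, in PSMA2 from -0.35 to 0.34, in PSMA3 from -0.16 to 0.44, in PSMA4 from -0.098 to 0.46, in PSMA5 from -0.13 to 0.49, in PSMA6 from -0.14 to 0.42, in PSMA7 from -0.27 to 0.28, in PSMB2 from -0.24 to 0.41, in PSMB3 from -0.20 to 0.49, in PSMB4 from -0.16 to 0.36 and in PSMB5 from -0.31 to 0.29. It ranged in PSMB6 from -0.29 to 0.48, in PSMB7 from -0.29 to 0.33, in PSMC1 from -0.14 to 0.12, in PSMC2 from -0.026 to 0.17, in PSMC4 from -0.18 to 0.41, in PSMC5 from -0.22 to 0.35, in PSMC6 from -0.29 to 0.27, in PSMD1 from -0.044 to 0.20, in PSMD2 from -0.17 to 0.075, in PSMD3 from -0.28 to 0.0051 and in PSMD6 from -0.34 to 0.25. In the rest it ranged in PSMD8 from -0.39 to 0.29, in PSMD12 from -0.12 to 0.15, in PSMD13 from -0.32 to 0.013, in PSMD14 from -0.47 to 0.13, in PSMD5 from -0.13 to 0.35, in PSME3 from -0.18 to 0.14, in PSMG1 from -0.15 to 0.50, in PSMG3 from -0.28 to 0.42 and in PSMG4 from -0.22 to 0.41.

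Without cow 489215, the calls of PSMF1 and PSMD4 held under TMM, upper quartile and library size scaling, edgeR and DESeq2, chosen after the data had been seen. PSME4 was lost under upper quartile scaling (limma adjusted p 0.0543) and PSMD14 under library size scaling (0.0521). These settings called 3 to 8 of the 45 members, where they called 17.9% to 25.3% of all genes, and 31 to 34 were lower in SF/SCL. With 2 SF/SCL cows left, the spread of the group rests on that pair. The cause of the changes was not tested. No paired analysis was possible because each cow number occurs in 1 group only. With 3 cows a group no exact test could go below 0.1. The tested members had at least 113 reads in every cow, and the effect of depth on the calls was not tested.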
